A study of Homo sapiens with 18 samples.

Results

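The FOS and JUN genes encode the subunits of the transcription factor AP-1. Their 7 members on the array, FOS, FOSB, FOSL1, FOSL2, JUN, JUNB and JUND, were chosen by gene name, out of 18417 genes with a symbol of their own, and each was read by 1 transcript cluster whose annotation named no other gene. Total RNA was read on 18 arrays, 6 of VCaP and 12 of LNCaP, human prostate cancer lines that respond to androgen. VCaP carries a fusion that places ERG under androgen control, and each line stands for 1 tumour. Cells were transfected with siRNA against CTBP1-AS, an RNA made antisense to the corepressor gene CTBP1, with siRNA against PSF, an RNA-binding protein and product of SFPQ, or with a control siRNA (siControl), and then received R1881, a synthetic androgen, or ethanol as vehicle. The VCaP arrays held siCTBP1-AS (its siRNA marked #2), siPSF and siControl at 1 nM R1881. LNCaP set 1 held siCTBP1-AS and siControl at 10 nM R1881, set 2 held siCTBP1-AS (marked #2) and siControl at 1 nM, and set 3 held siPSF and siControl at 10 nM. All cells of both lines had been kept for 3 days in charcoal-treated serum and transfected 48 h before the hormone. Each siRNA of a set had 1 R1881 array and 1 vehicle array, which gave 9 pairs, and the labels leave unsaid whether the arrays of a group were grown apart, so a p-value here may measure technical spread alone.

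AP-1 is a dimer of basic leucine zipper proteins. JUN proteins pair with each other or with FOS proteins, whereas FOS proteins need a JUN partner, and the dimers bind the TPA response element TGANTCA or, with ATF proteins, the cyclic AMP response element TGACGTCA. FOS, FOSB, JUN and JUNB are immediate early genes whose short-lived transcripts rise within minutes of growth factor or stress signals through the MAP kinases, while JUND and FOSL2 are transcribed more steadily. In prostate cancer cells JUN and FOS proteins are known to interact with the androgen receptor.

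The starts of JUN, FOSL2 and FOSB are shown because these are members that changed with siPSF or R1881. The sequences are RefSeq promoters of GRCh38.p14, found for 6 of the 7 members, from 250 bases before the gene's start to 30 bases after it. Both strands were searched for the AP-1 element TGANTCA, the cyclic AMP element TGACGTCA, the JUN promoter variant TGACATCA, the palindromic androgen response element and the hexamer AGAACA, which that element contains, and matches are in capitals.
JUN, chr1:58784018-58784297, minus strand: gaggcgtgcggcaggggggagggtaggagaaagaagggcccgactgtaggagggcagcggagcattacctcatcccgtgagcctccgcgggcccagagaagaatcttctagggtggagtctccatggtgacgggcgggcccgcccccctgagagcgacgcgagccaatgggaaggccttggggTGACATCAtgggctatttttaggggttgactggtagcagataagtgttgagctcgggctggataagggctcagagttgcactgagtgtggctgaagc
FOSL2, chr2:28392608-28392887, plus strand: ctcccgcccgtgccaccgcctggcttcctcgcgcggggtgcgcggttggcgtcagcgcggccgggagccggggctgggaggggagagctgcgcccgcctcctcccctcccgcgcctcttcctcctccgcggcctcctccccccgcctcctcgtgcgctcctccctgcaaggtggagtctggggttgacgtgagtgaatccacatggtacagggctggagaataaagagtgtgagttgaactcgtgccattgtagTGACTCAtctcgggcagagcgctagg
FOSB, chr19:45467746-45468025, plus strand: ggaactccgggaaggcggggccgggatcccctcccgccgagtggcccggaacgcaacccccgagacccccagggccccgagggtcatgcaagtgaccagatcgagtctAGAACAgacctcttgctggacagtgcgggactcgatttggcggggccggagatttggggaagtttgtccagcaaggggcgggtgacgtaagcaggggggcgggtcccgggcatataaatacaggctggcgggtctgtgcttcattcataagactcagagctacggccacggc
In JUN the variant TGACATCA began 67 bases before the start, and 2.55% of 35116 promoter windows of the same length held these letters. In FOSL2 the element TGACTCA began at base 5 after the start, and TGANTCA was found in 7.35% of the windows. FOSB held the hexamer AGAACA 142 bases before its start, as did 13.8% of the windows at any position, and JUND held TGACGTCA 200 bases before its start, as did 1.85% of the windows. The androgen element without its last base was in 0.0114% of the windows and in none of the 6 members. A match is a string of letters in this window and was not tested for binding.

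The values were log2 signals, in which 1 unit is a change of 2-fold. Each set had its own scale, so the levels of members are given set by set, and markers are placed by the percentile of their mean signal among all features of the line's arrays. SFPQ, the target of siPSF, fell on the arrays of that siRNA (log2 change -1.18, SE 0.14, limma adjusted p = 0.000849), while CTBP1-AS itself was not analysed here. With siCTBP1-AS the change of CTBP1 was -0.05 over both lines (SE 0.11, limma adjusted p = 0.852) and -0.21 in LNCaP (SE 0.13, limma adjusted p = 0.459). Neither passed, and these values do not check the knockdown of CTBP1-AS. KLK3, which encodes prostate-specific antigen, rose with R1881 in VCaP (log2 change 2.09, SE 0.31, limma adjusted p = 0.000591) and in LNCaP (1.54, SE 0.22, limma adjusted p = 0.000631). Of 8 luminal prostate markers listed, ERG among them, 7 were on the array under their own symbol, and KRT8 and KRT18 stood at percentiles 98.7 and 97.9 in VCaP and at 99.2 and 98.3 in LNCaP. ERG was at percentile 93.3 in VCaP and 13.1 in LNCaP. Of 3 basal epithelium genes listed, 2 were on the array under their own symbol. KRT14 stood at percentile 47.1 in VCaP and 39.1 in LNCaP, and KRT5 at 22.1 and 27.9. The 4 leukocyte genes ran from percentile 1.57 (PTPRC) to 27.8 (CD14) in VCaP and from 2.09 (PTPRC) to 27.0 (CD14) in LNCaP, with LYZ at 25.6 and 16.1. Among 4 fibroblast genes, DCN was at percentile 5.47 in VCaP and 4.69 in LNCaP, while the collagen genes COL1A1 (49.3 and 57.5) and COL1A2 (31.0 and 34.4) stood in the middle of the range. LUM, the fourth, moved with R1881 in VCaP, with signals of 5.15, 6.80 and 4.86 in R1881 and of 8.58, 10.10 and 9.74 in vehicle (siCTBP1-AS, siPSF and siControl). Over the same arrays DCN lay between 3.43 and 4.03, COL1A1 between 6.82 and 7.06 and COL1A2 between 5.41 and 5.77. The part of LUM or of the cells that express it in the VCaP results was not tested.

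**Figure D1:**
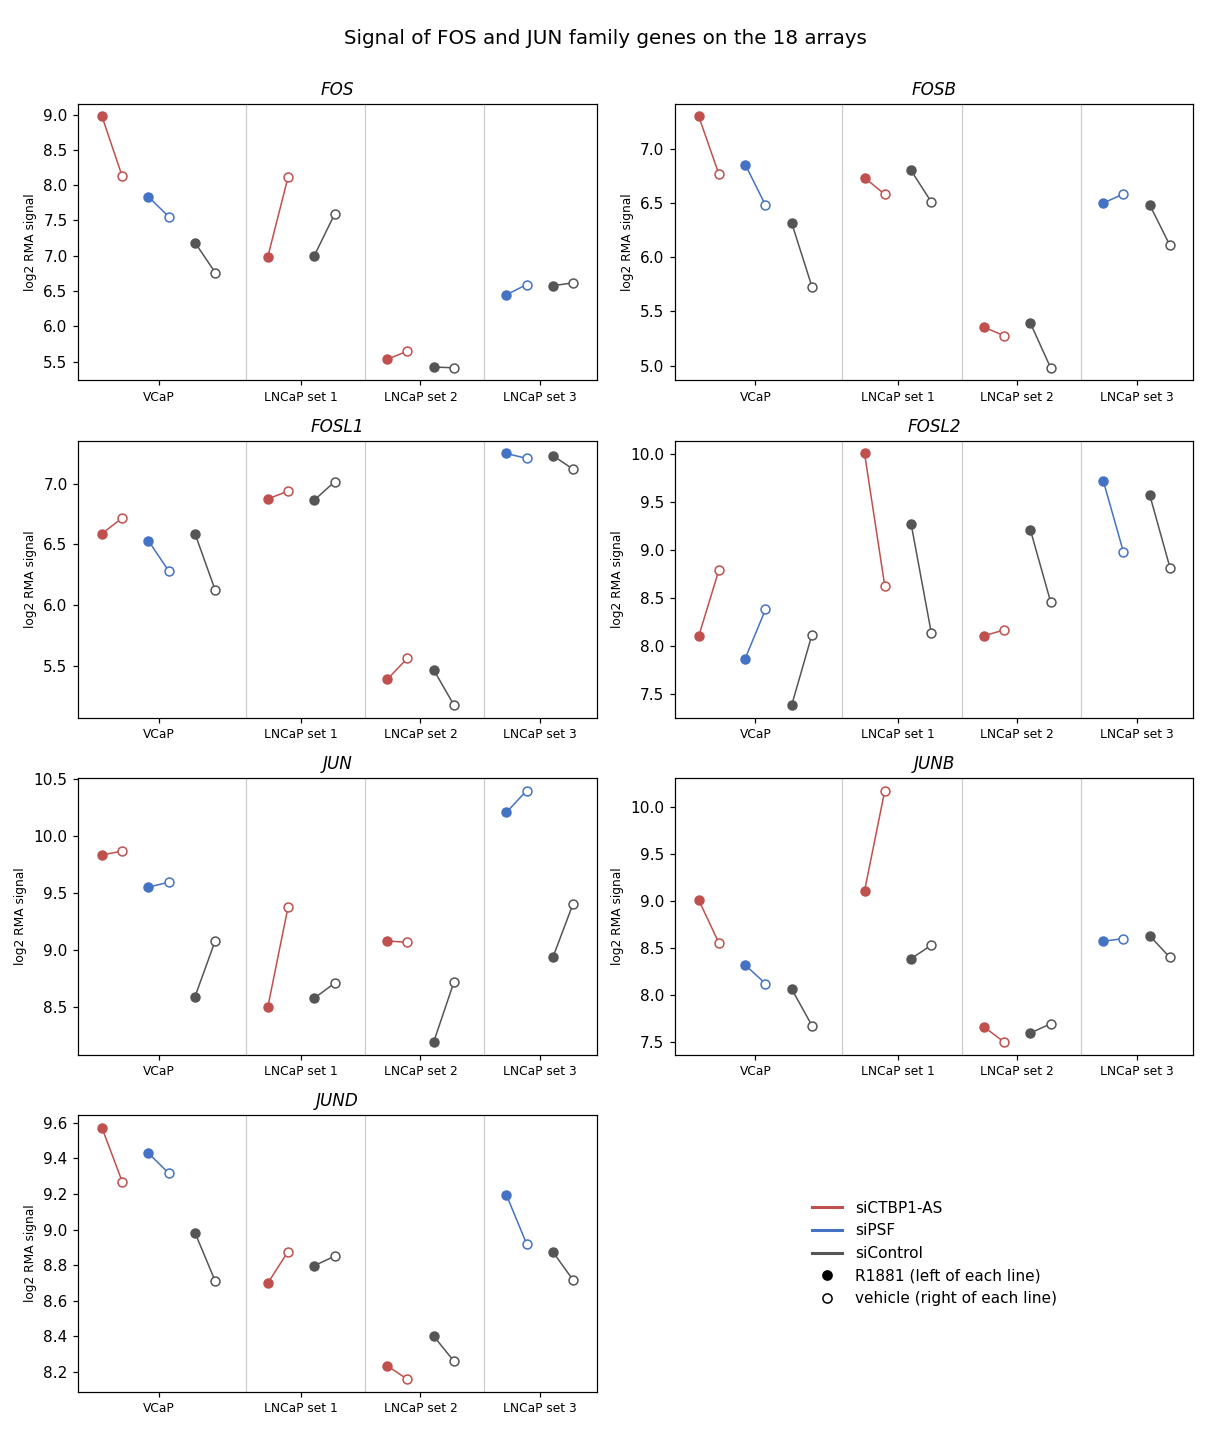
Log2 RMA signal (vertical axis) of each FOS and JUN family gene on the 18 arrays, 1 panel per gene, with a line joining the R1881 array (filled) to the vehicle array (open) of the same siRNA and set. The FOSL2 lines run up toward vehicle in VCaP and down toward vehicle in LNCaP, apart from siCTBP1-AS in set 2, and the siPSF points of JUN lie above those of siControl in VCaP and in LNCaP set 3.

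The first question was how androgen moved each subunit. FOSL2 responded in opposite directions in the lines: it fell with R1881 in VCaP and rose with it in LNCaP. FOSB rose in VCaP and JUN fell in LNCaP. The medians of the 7 members were 0.23 in VCaP and 0.01 in LNCaP, against 0.01 and -0.01 over all features. FOSL1 and JUND passed no test of the R1881 response, and the FOS response differed between the lines although it passed in neither alone.

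FOSL2 encodes FRA-2, a FOS protein without the strong activation domain of FOS. In VCaP its signals were 8.10, 7.87 and 7.39 with R1881, against 8.79, 8.38 and 8.12 with vehicle (siCTBP1-AS, siPSF and siControl). In LNCaP they were 10.00, 8.11 and 9.72 with R1881 and knockdown (siCTBP1-AS in set 1, siCTBP1-AS in set 2, siPSF in set 3), against 8.63, 8.17 and 8.98 with vehicle and the same siRNA. With siControl they were 9.28, 9.21 and 9.57 with R1881 in sets 1, 2 and 3, against 8.14, 8.46 and 8.82 with vehicle. Thus FOSL2 was lower with R1881 in 3 of 3 VCaP pairs and higher in 5 of 6 LNCaP pairs, the exception being siCTBP1-AS in set 2 with a difference of -0.06. All 3 VCaP pairs had the same sign in 58.4% of all features, and all 6 LNCaP pairs in 21.7%. The LNCaP share is for a stricter agreement than 5 of 6, which FOSL2 does not meet. No share over all features was computed for 5 of 6 or 8 of 9 differences, here or for the members below. In a limma fit of the 9 pairs the change was -0.64 in VCaP (SE 0.20, adjusted p = 0.0311) and 0.78 in LNCaP (SE 0.14, adjusted p = 0.00276). The LNCaP rise passed in each alternative run, at 0.66 to 0.95 (adjusted p between 0.000128 and 0.00962). Over all 15128 features, 15.4% were called lower and 13.5% higher in VCaP, and 9.3% lower and 9.22% higher in LNCaP, so 1 member called lower and 1 higher in each line is a share near the background. Tissue culture arrays do not tell apart fewer cells of a type from less RNA per cell.

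The difference of the FOSL2 responses, VCaP minus LNCaP, was -1.43 (SE 0.24, 95% interval -1.96 to -0.89, limma adjusted p = 0.00441), and 99.1% of all features differed by less. In that comparison 6.04% of features were called lower and 5.09% higher. The lines also differed in dose, set and serum, which cannot be told apart from the line with all sets in the fit. With only the arrays treated at 1 nM, set 2 and VCaP, the difference was -0.99 (limma adjusted p = 0.0516), which no longer passed. The FOSL2 fall in VCaP lost its call without the siControl pair (-0.60, limma adjusted p = 0.154), without the siCTBP1-AS pair (-0.62, adjusted p = 0.117), without the siPSF pair (-0.71, adjusted p = 0.0745) and with quantile normalization over all arrays (-0.58, adjusted p = 0.0604), each of which kept its direction.

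**Figure D2:**
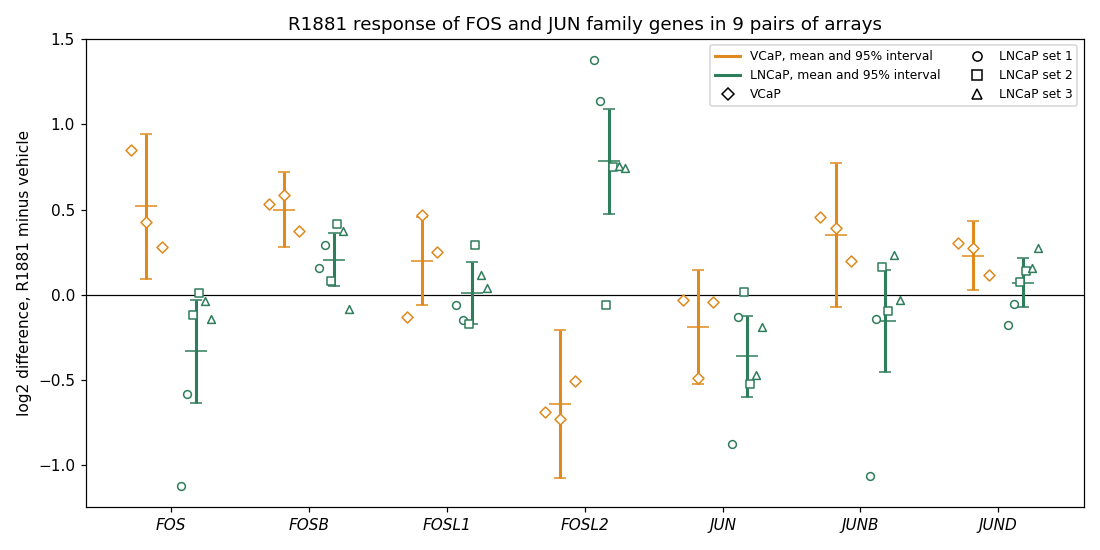
Log2 difference of R1881 minus vehicle (vertical axis) for each gene in the 9 pairs of arrays, with the limma mean and 95% interval for VCaP and for LNCaP. All 3 VCaP points of FOSL2 lie below 0, between -0.73 and -0.51, and 5 of its 6 LNCaP points lie above 0, up to 1.38.

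FOS, the first described partner of JUN, had signals of 8.97, 7.83 and 7.19 with R1881 in VCaP, against 8.13, 7.55 and 6.76 with vehicle (siCTBP1-AS, siPSF and siControl). In LNCaP set 1 it was 6.99 with siCTBP1-AS and 7.00 with siControl under R1881, against 8.11 and 7.59 under vehicle. The other 4 LNCaP pairs differed little, with R1881 minus vehicle between -0.14 and 0.01. They come from sets 2 and 3, where the mean FOS signal stood at percentiles 38.5 and 37.8. FOS was thus higher with R1881 in every VCaP pair, where 58.4% of features had 1 sign throughout, and lower in 5 of 6 LNCaP pairs. The change was 0.52 in VCaP (SE 0.19, limma adjusted p = 0.0667) and -0.33 in LNCaP (SE 0.14, limma adjusted p = 0.12), neither of which passed, while their difference of 0.85 did (SE 0.24, limma adjusted p = 0.0423). The VCaP change passed without the set 1 siCTBP1-AS pair (0.52, limma adjusted p = 0.0148), since that pair enters the spread that both lines share in the fit. The LNCaP change was -0.18 without that pair (limma adjusted p = 0.293) and -0.19 without both siCTBP1-AS pairs (adjusted p = 0.348).

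The call on the FOS difference between the lines depended on single pairs. It was lost without the VCaP pairs of siCTBP1-AS (0.69, limma adjusted p = 0.165), siControl (0.90, adjusted p = 0.126) or siPSF (0.97, adjusted p = 0.0651). It was also lost without the LNCaP pairs of set 1 siControl (0.80, limma adjusted p = 0.0731), set 2 siCTBP1-AS (0.90, adjusted p = 0.0512) or set 3 siPSF (0.89, adjusted p = 0.0541), and with quantile normalization (0.89, adjusted p = 0.0579). With only the arrays at 1 nM it was 0.57 (limma adjusted p = 0.147).

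FOSB encodes a close relative of FOS with a similar activation domain. Its mean signal was below the middle of the range. It stood at percentile 44.7 of all features in VCaP and at 40.0, 35.4 and 35.7 in LNCaP sets 1, 2 and 3. In VCaP this was below the fibroblast gene COL1A1 (49.3) and the basal gene KRT14 (47.1), listed as markers of other cells. Whether FOSB lay above background signal was not tested. In VCaP FOSB was at 7.30, 6.85 and 6.31 with R1881, against 6.76, 6.48 and 5.73 with vehicle (siCTBP1-AS, siPSF and siControl). It rose there by 0.50 (SE 0.10, limma adjusted p = 0.00361), higher in 3 of 3 pairs (58.4% of features had 1 sign in these pairs), and its adjusted p stayed between 0.00201 and 0.0384 in the alternatives run. In LNCaP the difference was above 0 in 5 of 6 pairs, from -0.08 to 0.41, and the change of 0.20 did not pass (SE 0.07, limma adjusted p = 0.0689). It passed without the set 3 siPSF pair (0.26, limma adjusted p = 0.0329) and with quantile normalization (0.23, adjusted p = 0.0263). The test of the difference between the lines gave 0.29 (SE 0.12, limma adjusted p = 0.157).

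FOSL1, which encodes FRA-1, a FOS protein often raised in invasive tumour cells, showed no consistent direction. Its mean signal stood at percentile 43.4 in VCaP and at 44.3, 37.1 and 46.6 in LNCaP sets 1, 2 and 3. Its R1881 minus vehicle difference ran from -0.13 to 0.47 in VCaP and from -0.17 to 0.29 in LNCaP, with 2 of 3 and 3 of 6 pairs above 0. The changes were 0.20 in VCaP (SE 0.12, 95% interval -0.06 to 0.45) and 0.01 in LNCaP (SE 0.08, 95% interval -0.17 to 0.19).

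JUN encodes the subunit that can bind DNA as a dimer with itself. In VCaP its signals were 9.83, 9.55 and 8.59 with R1881, against 9.86, 9.59 and 9.08 with vehicle (siCTBP1-AS, siPSF and siControl). In LNCaP they were 8.58, 8.19 and 8.93 with R1881 and siControl in sets 1, 2 and 3, against 8.71, 8.71 and 9.40 with vehicle. With knockdown they were 8.50 for siCTBP1-AS in set 1, 9.08 for siCTBP1-AS in set 2 and 10.20 for siPSF in set 3 under R1881, against 9.37, 9.06 and 10.39 under vehicle. JUN was thus lower with R1881 in 8 of 9 pairs, by the most in the siCTBP1-AS pair of set 1 with -0.88. It fell in LNCaP by 0.36 on the log2 scale (SE 0.11, limma adjusted p = 0.0377), and the change in VCaP was -0.19 (SE 0.15, limma adjusted p = 0.401), with a difference between the lines of 0.17 (SE 0.19, 95% interval -0.24 to 0.59). Without the siControl pair the VCaP change was -0.038. The LNCaP call was lost without the set 1 siCTBP1-AS pair (-0.26, limma adjusted p = 0.0987), the set 2 siControl pair (-0.33, adjusted p = 0.105), the set 3 siControl pair (-0.34, adjusted p = 0.101), the set 3 siPSF pair (-0.40, adjusted p = 0.0561) or the VCaP siPSF pair (-0.36, adjusted p = 0.0502).

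JUNB encodes a JUN protein that activates transcription less strongly than JUN. Its signals in VCaP were 9.02, 8.32 and 8.07 with R1881, against 8.56, 8.13 and 7.68 with vehicle (siCTBP1-AS, siPSF and siControl), and the change of 0.35 did not pass (SE 0.19, limma adjusted p = 0.207). Without the siCTBP1-AS pair of set 1, where JUNB was 9.11 with R1881 and 10.18 with vehicle, the VCaP change of 0.35 passed (limma adjusted p = 0.0223). The other 5 LNCaP pairs lay between -0.14 and 0.23, and the LNCaP change was -0.16 (SE 0.14, limma adjusted p = 0.48). JUND, whose transcription is steadier than that of JUN, was higher with R1881 in 3 of 3 VCaP pairs by 0.11 to 0.30 (again beside 58.4% of features with 1 sign), and differed by -0.18 to 0.28 in LNCaP. Its changes were 0.23 in VCaP (SE 0.09, limma adjusted p = 0.0872) and 0.07 in LNCaP (SE 0.07, limma adjusted p = 0.521).

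When the androgen response was taken from the 3 LNCaP siControl arrays with R1881 against the 3 with vehicle, none of the 7 members passed, and 0.251% of all features did. FOSL2 had the largest change of the members, 0.88 (SE 0.43, limma adjusted p = 1.0). That fit leaves the level differences between sets in its spread. In simulated data with this spread it recovered 0% of features changed by 1 log2 unit and 1.09% of those changed by 2. That noise was independent between features, whereas the arrays gave 38 calls. The shares recovered thus do not measure what this fit could find on the arrays. With a block for the replicate number, by which R1881 and vehicle arrays of a set form pairs, FOSL2 rose by 0.88 (SE 0.12, limma adjusted p = 0.0158) while 2.64% of features were called higher. In the paired fit JUN had a change of -0.37 (SE 0.12, limma adjusted p = 0.152) and FOSB one of 0.36 (SE 0.10, limma adjusted p = 0.11).

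The next question was what the knockdown of CTBP1-AS did to the subunits. In VCaP the 7 members were at or above siControl in both treatments, and in LNCaP the picture depended on the set. The VCaP pattern was not particular to siCTBP1-AS. With siPSF, read against the same siControl arrays, every member but FOSL1 was above siControl in both treatments. FOSL1 differed there by -0.06 in R1881 and 0.16 in vehicle. The part of the shared siControl arrays in this pattern was not tested, and no share over all features was computed for it. In the fit over both lines none of the 7 passed, although the changes of all 7 were above 0, with a median of 0.37 against -0.02 over all features, of which 0.212% were called higher. Without the VCaP siCTBP1-AS arrays FOSL2 (-0.044) and JUND (-0.085) lay below 0. The siCTBP1-AS differences within VCaP and within LNCaP rest on 1 knockdown array and 1 siControl array per treatment and set.

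FOS was at 8.97 with siCTBP1-AS against 7.19 with siControl in VCaP under R1881, and at 8.13 against 6.76 under vehicle. These differences of 1.79 and 1.36 were past 2-fold, as were 0.595% of features in R1881 and 0.337% in vehicle. In LNCaP the FOS differences were -0.02 in R1881 and 0.52 in vehicle in set 1, and 0.11 in R1881 and 0.24 in vehicle in set 2. The FOS change over both lines was 0.64 (SE 0.23, limma adjusted p = 0.173). FOSB had differences of 0.99 in R1881 and 1.04 in vehicle in VCaP and between -0.07 and 0.30 in LNCaP, with a change over both lines of 0.37 (SE 0.14, limma adjusted p = 0.185). Without the VCaP siCTBP1-AS arrays the change was 0.21 for FOS (limma adjusted p = 0.617) and 0.065 for FOSB (adjusted p = 0.783).

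The siCTBP1-AS effect on FOSB differed between the lines. A fit with an effect per line, chosen after the data were seen, gave a difference of 0.95, VCaP minus LNCaP (SE 0.13, 95% interval 0.67 to 1.23, limma adjusted p = 0.0292), and called 0.0529% of features higher. The differences of FOS (1.36, SE 0.31, limma adjusted p = 0.16) and JUND (0.66, SE 0.15, limma adjusted p = 0.167) did not pass, and neither did those of the other 4 members. JUND was at 9.57 with siCTBP1-AS against 8.98 with siControl in VCaP under R1881 and at 9.27 against 8.71 under vehicle, whereas its LNCaP differences ran from -0.17 to 0.03. VCaP holds 1 siControl array per treatment, and the siCTBP1-AS and siPSF differences there share it. The line cannot be told apart from the set and serum here, and LNCaP set 1 also differed from VCaP in siRNA mark and R1881 dose. The fit with an effect per line was not rerun with the alternatives.

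JUN was higher with siCTBP1-AS in 5 of 6 differences. It stood at 9.83 against 8.59 with siControl in VCaP under R1881 and at 9.86 against 9.08 under vehicle. In LNCaP it was 8.50 against 8.58 under R1881 and 9.37 against 8.71 under vehicle in set 1, and 9.08 against 8.19 under R1881 and 9.06 against 8.71 under vehicle in set 2. The change over both lines was 0.69 (SE 0.15, limma adjusted p = 0.058) and that in LNCaP alone 0.46 (SE 0.16, limma adjusted p = 0.207). Without the siCTBP1-AS arrays of set 1 the change over both lines was 0.88 and passed (limma adjusted p = 0.0438). It was 0.73 without those of set 2 (limma adjusted p = 0.151), 0.46 without those of VCaP (adjusted p = 0.15) and 0.64 with only the sets that hold the knockdown (adjusted p = 0.134).

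JUNB and FOSL2 differed between LNCaP sets 1 and 2, which used siCTBP1-AS siRNAs of different marks and R1881 at different doses. In set 1 JUNB was at 9.11 with siCTBP1-AS against 8.39 with siControl under R1881 and at 10.18 against 8.53 under vehicle, and the vehicle difference of 1.65 was past 2-fold, as were 1.34% of features. In set 2 it was 7.67 against 7.60 under R1881 and 7.50 against 7.70 under vehicle. FOSL2 was higher with siCTBP1-AS in set 1, by 0.73 in R1881 and 0.49 in vehicle. In set 2 it was lower, with differences of -1.10 in R1881 and -0.29 in vehicle, where 2.37% of features were at least 2-fold lower under R1881. In VCaP, whose siRNA has the mark of set 2, JUNB was higher by 0.95 and 0.88 and FOSL2 by 0.72 and 0.67 (R1881 and vehicle).

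In the LNCaP fit, in which 0.84% of features were called, the JUNB change was 0.56 (SE 0.29, limma adjusted p = 0.367) and the FOSL2 change -0.04 (SE 0.31). Without the siCTBP1-AS arrays of set 2, JUNB was at 1.18 (limma adjusted p = 0.0196) and FOSL2 at 0.61 (adjusted p = 0.186). That fit called 1.2% of all features. Without those of set 1, JUNB was at -0.06 (limma adjusted p = 0.833) and FOSL2 at -0.70 (adjusted p = 0.0449). This fit called 7.36% of all features, so the FOSL2 call is less rare than the 0.84% would make it. Both reduced fits had 2 residual degrees of freedom. Over both lines the JUNB change was 0.66 (SE 0.20, limma adjusted p = 0.112), and it was 1.00 without the siCTBP1-AS arrays of set 2 (adjusted p = 0.047), 0.42 without those of set 1 (adjusted p = 0.247) and 0.56 without those of VCaP (adjusted p = 0.276). Under vehicle, which holds no R1881, the siRNA and the set cannot be told apart. Under R1881 the dose cannot be told apart from them either. FOSL1 differed from siControl by -0.08 to 0.60 over the 6 comparisons, with a change over both lines of 0.15 (SE 0.08, limma adjusted p = 0.354).

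**Figure D3:**
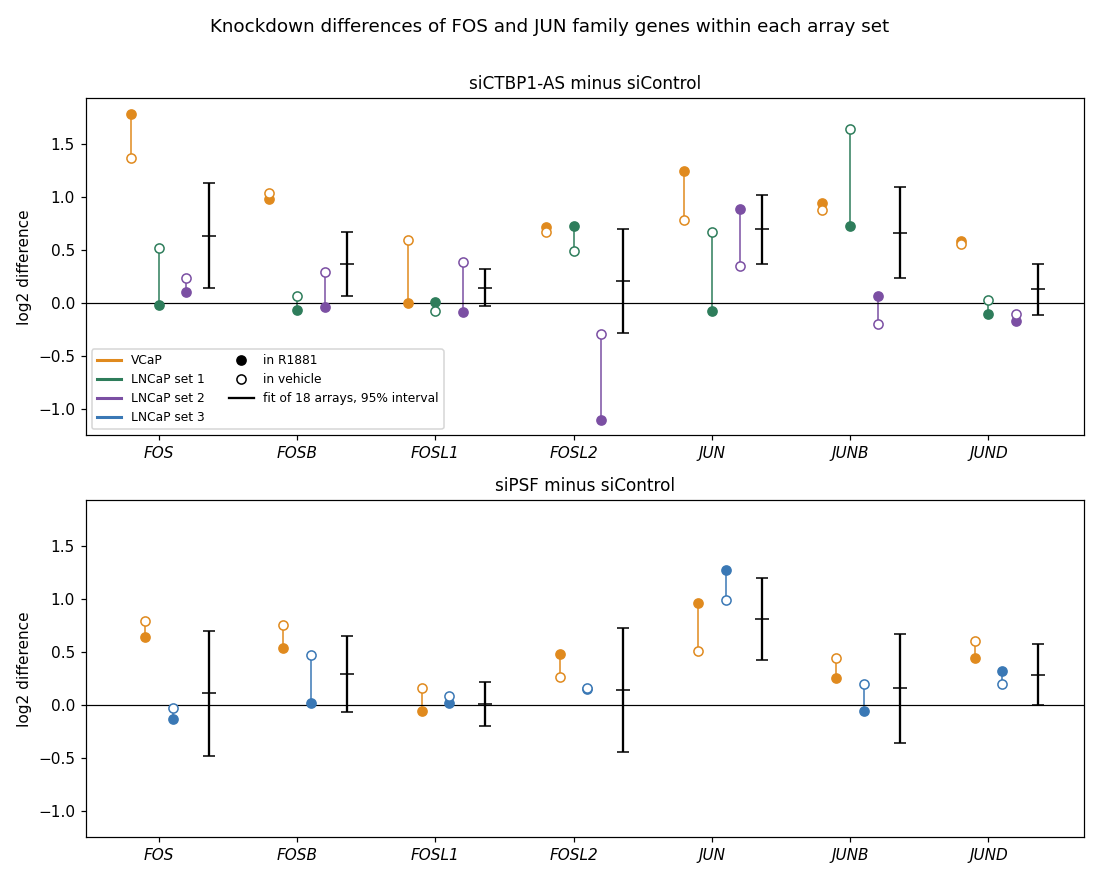
Log2 difference of knockdown minus siControl (vertical axis) for each gene in each set, in R1881 (filled) and vehicle (open), with the estimate and 95% interval of the fit of 18 arrays in black, for siCTBP1-AS (top) and siPSF (bottom). For siPSF the 4 JUN points lie between 0.51 and 1.27, and for siCTBP1-AS the VCaP points of FOS, at 1.36 and 1.79, lie above those of both LNCaP sets.

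JUN rose with the knockdown of PSF. In VCaP JUN was at 9.55 with siPSF against 8.59 with siControl under R1881 and at 9.59 against 9.08 under vehicle. In LNCaP set 3 it was at 10.20 with siPSF against 8.93 with siControl under R1881 and at 10.39 against 9.40 under vehicle. JUN was higher in 4 of 4 differences, by 0.51 to 1.27, as were 10.8% of all features in any amount, and in set 3 under R1881 0.449% of features were at least 2-fold higher. In the fit over both lines JUN rose by 0.81 (SE 0.18, 95% interval 0.43 to 1.20, limma adjusted p = 0.0488), and it was the 1 member of 7 called, with 0.178% of features called higher. This call stood just inside the threshold and was lost with no filter on low signals (0.81, limma adjusted p = 0.0556), with quantile normalization (0.85, adjusted p = 0.0541), with only set 3 and VCaP in the fit (0.93, adjusted p = 0.0606), without the siPSF arrays of set 3 (0.55, adjusted p = 0.359) and without those of VCaP (1.13, adjusted p = 0.127), always with JUN higher. The rise was not particular to siPSF. With siCTBP1-AS the JUN change over both lines was 0.69 (limma adjusted p = 0.058). Against the same VCaP siControl arrays JUN was higher by 1.24 in R1881 and 0.79 in vehicle with siCTBP1-AS, and by 0.96 and 0.51 with siPSF. The 2 knockdowns were not tested against each other.

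None of the other 6 members passed with siPSF. JUND was higher in 4 of 4 differences, as 10.8% of features were, by 0.20 to 0.61 (change 0.29, SE 0.13, limma adjusted p = 0.379), and FOSB by 0.02 to 0.75 (0.29, SE 0.17, limma adjusted p = 0.508). FOS was higher with siPSF in VCaP, by 0.65 in R1881 and 0.79 in vehicle, and close to siControl in LNCaP, at -0.13 and -0.02. The test of that difference between the lines, added after the data were seen, gave 0.80 (SE 0.36, 95% interval -0.0027 to 1.59, limma adjusted p = 0.437), and that comparison called 0.139% of features and no member. FOSL2 was higher by 0.15 to 0.48, JUNB differed by -0.06 to 0.45 and FOSL1 by -0.06 to 0.16.

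The design also asks whether a knockdown altered the androgen response of a subunit. No member passed for siCTBP1-AS or siPSF, and 0% of features were called by limma in either comparison, against 537 and 297 features at an unadjusted p under 0.05. The member nearest to the threshold was FOSL1, whose R1881 response with siCTBP1-AS minus that with siControl was -0.32 (SE 0.15, 95% interval -0.65 to 0.01, limma adjusted p = 0.997). For the genes that responded in a line, the 95% intervals of the siCTBP1-AS term were -1.09 to 0.79 for FOSL2, -0.53 to 0.71 for JUN and -0.77 to 0.39 for FOSB, which hold 0 and changes of either sign. In simulated data of this size limma recovered 71.7% of features changed by 1 log2 unit with siCTBP1-AS and 63.6% with siPSF. That noise was independent between features, and larger changes were planted beside these, whereas the arrays gave no calls. The SE of the members ran from 0.15 (FOSL1) to 0.44 (FOS) with siCTBP1-AS and from 0.18 (FOSL1) to 0.51 (FOS) with siPSF. The shares recovered thus do not hold for each member.

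The members were then compared over the 18 arrays after each set's mean had been subtracted, as a description of arrays that share sets, siControl samples and scaling. FOSB and JUND varied most alike (Pearson's r = 0.83), followed by FOS and JUNB (0.77), FOS and FOSB (0.70) and FOS and JUND (0.70). FOSL2 stood apart, with r between -0.14 and 0.25 to the other members. Over 15128 features, those most like FOS were CXCL1 (0.83), REXO1L1P (0.82) and EGR1 (0.82), and those most like JUNB were EGR1 (0.91), DUSP5 (0.86) and CXCL8 (0.85). JUN was most like KRTAP12-4 (0.89), IQCN (0.89) and MYLIP (0.85), and FOSL2 was most like ARHGAP28 (0.92), HSD17B11 (0.85) and DSC1 (0.84). FOSB was most like SCN2B (0.89), HR (0.87) and HAPLN3 (0.87), FOSL1 like INSYN1 (0.92), CDK5R2 (0.90) and RBMXL2 (0.90), and JUND like ACER2 (0.86), DESI2 (0.85) and NCR2 (0.84).

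**Figure D4:**
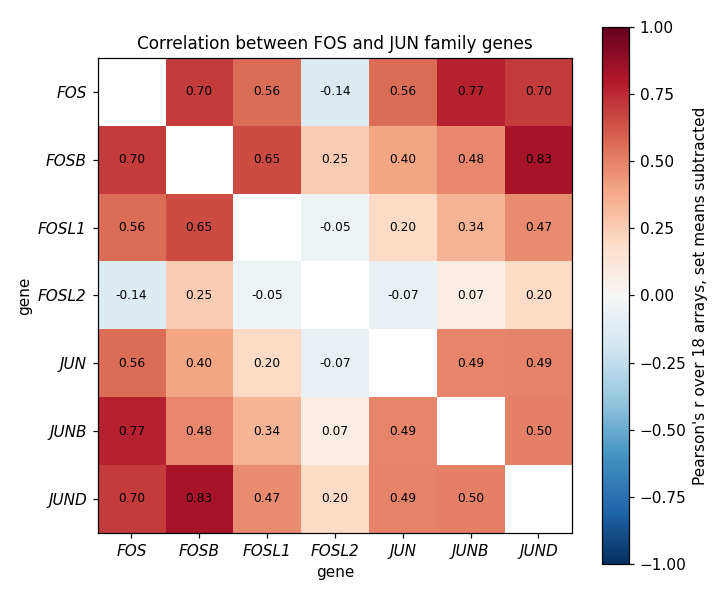
Pearson's r between the log2 signals of each pair of FOS and JUN family genes over 18 arrays after subtraction of set means (colour and printed value). The row of FOSL2 holds values from -0.14 to 0.25, while FOS, FOSB, JUNB and JUND are linked by values from 0.48 to 0.83.

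Genes around AP-1 were read from lists, and their counts stand beside the shares of all features called with R1881, 13.5% higher and 15.4% lower in VCaP and 9.22% higher and 9.3% lower in LNCaP. Of 17 other immediate early genes tested, 6 rose and 1 fell with R1881 in VCaP and likewise in LNCaP, with medians of 0.16 in VCaP and 0.00089 in LNCaP against 0.01 and -0.01 over all features. In VCaP the orphan receptor gene NR4A1 rose by 0.94 (SE 0.23) and its relative NR4A2 fell by 1.58 (SE 0.13), while EGR1, a zinc finger factor induced along with FOS, rose by 0.65 (SE 0.17). ZFP36, which marks short-lived mRNAs for decay, rose by 0.76 (SE 0.11), KLF4 by 0.70 (SE 0.24), EGR3 by 0.42 (SE 0.12) and CCN1 by 0.36 (SE 0.09). In LNCaP the kinase gene SGK1 rose by 2.26 (SE 0.27), NR4A1 by 1.47 (SE 0.16), KLF4 by 1.19 (SE 0.17), KLF6 by 0.79 (SE 0.09), CCN1 by 0.42 (SE 0.06) and ZFP36 by 0.35 (SE 0.08), and MCL1, a survival gene of the BCL2 family, fell by 0.30 (SE 0.09). CCN1 in VCaP and MCL1 in LNCaP were named after their values were seen. The R1881 response of EGR1 was higher in VCaP than in LNCaP, by 0.89 (SE 0.20, limma adjusted p = 0.0179).

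Among 14 upstream kinases and ternary complex factors, 2 rose and 2 fell with R1881 in VCaP, and 4 rose and 2 fell in LNCaP. The VCaP counts are shares near those of all features (13.5% higher, 15.4% lower), and in LNCaP 9.22% of all features rose and 9.3% fell, so the genes are given as values and not as a pattern of the list. MAP2K4, a kinase that activates the JUN kinases, rose in VCaP by 0.57 (SE 0.12) and in LNCaP by 0.50 (SE 0.09), and MAP3K1, which acts above it, fell by 0.44 (SE 0.11) in VCaP and by 0.32 (SE 0.08) in LNCaP. The JUN kinase gene MAPK10 rose in VCaP by 1.18 (SE 0.14) and ELK3, a ternary complex factor, fell there by 0.51 (SE 0.15). In LNCaP RPS6KA3, ELK4 and MAP2K1 rose by 0.85 (SE 0.07), 0.77 (SE 0.13) and 0.34 (SE 0.08), and the JUN kinase gene MAPK9 fell by 0.33 (SE 0.07). Of 7 MAP kinase phosphatases, DUSP10 (0.59, SE 0.16) and DUSP1 (0.58, SE 0.13) rose in VCaP and DUSP4 (1.38, SE 0.13) in LNCaP.

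Among partners and targets at most 2 of 11 genes passed in either direction, beside shares over all features of 13.5% higher and 15.4% lower in VCaP and 9.22% and 9.3% in LNCaP. Of 11 other leucine zipper partners, MAFF rose in VCaP by 0.38 (SE 0.12), while in LNCaP MAF rose by 1.92 (SE 0.28) and JDP2, a repressor that pairs with JUN, fell by 0.57 (SE 0.13). Of 11 known AP-1 targets tested among 21 on the array, CD44 fell by 0.99 (SE 0.19) and PLAUR by 0.28 (SE 0.08) in VCaP, and VEGFA rose by 0.57 (SE 0.17) and ITGB4 fell by 0.30 (SE 0.07) in LNCaP.

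With siCTBP1-AS over both lines, 2 of 17 immediate early genes rose, ZFP36 by 0.59 (SE 0.11, limma adjusted p = 0.0483) and KLF6 by 0.49 (SE 0.09, adjusted p = 0.0456), and 2 of 11 AP-1 targets rose, CXCL8, the gene of interleukin-8, by 1.57 (SE 0.30, adjusted p = 0.0494) and HMOX1, the gene of heme oxygenase, by 1.17 (SE 0.20, adjusted p = 0.0382), where 0.212% of all features were called higher. None of the 14 kinases, 7 phosphatases or 11 partners passed. The change was above 0 in 15 of the 17 immediate early genes (median 0.25), in 6 of the 7 phosphatases (median 0.44) and in 2 of the 14 kinases (median -0.12), against a median of -0.02 over all features. Of 7 luminal prostate markers 2 were above 0 (median -0.23) and none passed, and their part in these values was not tested. With siPSF 1 gene of these lists passed, DUSP10, a phosphatase that acts on the JUN kinases, which rose by 0.69 (SE 0.15, limma adjusted p = 0.0488), where 0.178% of all features were called higher.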

How the data were processed

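The authors deposited 1 log2 signal for each transcript cluster and array, and the submitters' processing notes name RMA and version 1.1.1 of Affymetrix Expression Console. Not given in the sources used here are the grouping of arrays for RMA and the time in hormone. The mean of the array medians was 6.70, 5.74 and 6.80 in LNCaP sets 1, 2 and 3 and 6.25 in VCaP, and arrays of a set correlated at 0.980 to 0.992 across features, which are not replicates. No 2 arrays were identical.

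Where a gene had several clusters, that with the highest mean was used, and 1754 clusters with several symbols were kept unnamed, which gave 20171 features. The lowest 25% by mean over a fit's arrays were dropped, which left 15128, all 7 members included. The members, lists and tests were chosen with earlier results of these data known. Tests used limma 3.58.1 (lmFit and eBayes) in R 4.3.3, with Benjamini-Hochberg adjustment over all features at 0.05. R1881 responses were fitted on all 18 arrays with the 9 pairs as a block, so the lines share 1 spread (7 residual degrees of freedom). Knockdown effects were taken as the mean of the siRNA differences from siControl under both treatments, with the set as a block, R1881 per line and the products of siRNA and R1881 as terms. In this fit arrays of all sets bear on an effect, so it is not the mean of the sets that hold the knockdown. The number of arrays limits the precision.

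The replicate numbers pair the LNCaP siControl arrays, since same-numbered arrays belong to the same set. After subtraction of group means these pairs correlated at 0.79, 0.85 and 0.70, and those of other pairs at -0.64 to -0.07. Named genes were the 7 members, the knockdown and androgen controls, the called genes of each list up to the 6 with the largest change, and the 3 features most correlated with each member. FKBP5 and TMPRSS2 are not reported, as their clusters carry several symbols. The code was tested on simulated data. Alternatives were the filter, the variance prior, quantile normalization, the choice of cluster, the replicate block, the sets in the fit and arrays left out. The arrays at 1 nM alone, the LNCaP response without siCTBP1-AS pairs and the knockdown effects per line were added after the data were seen.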

Additional observations from a re-analysis of the deposited data

Results flagged for a closer look

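The R1881 response of FOSL2 differed between the lines, by -1.43 (VCaP minus LNCaP, log2), with 3 of 3 VCaP pairs below 0 and 5 of 6 LNCaP pairs above 0. The R1881 response of FOS differed by 0.85, with 3 of 3 VCaP pairs above 0 and 5 of 6 LNCaP pairs below 0. The LNCaP falls of FOS were in set 1 (-1.13 with siCTBP1-AS and -0.59 with siControl), while its pairs in sets 2 and 3 lay between -0.14 and 0.01. All 3 VCaP pairs had the same sign in 58.4% of all features, so that agreement alone sets neither gene apart. With only the arrays at 1 nM neither difference was called (-0.99 for FOSL2 and 0.57 for FOS). The FOS call was also lost when some single pairs were left out, and the line cannot be told apart from the set and serum. The siCTBP1-AS effect on FOSB differed by 0.95, being 0.99 and 1.04 in VCaP and -0.07 to 0.30 in LNCaP, in a fit that was not rerun with the alternatives. The mean FOSB signal stood at percentile 44.7 in VCaP, below the fibroblast gene COL1A1 at 49.3. With siPSF, FOS was above siControl in both VCaP differences and below it in both LNCaP differences, and the limma test of that difference (0.80) did not pass.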

How the results depend on the processing

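Of 602 recomputed changes of members, 539 kept their direction and their side of the threshold, 24 lost a call, 9 gained one and 30 changed sign, none of these 30 called either way. Many of the 539 had little room to move. Leaving out a VCaP pair does not alter an R1881 estimate in LNCaP, nor an LNCaP pair one in VCaP, and most changes were not called at first. The 539 thus do not measure how stable the calls were. Counts of called features moved by more than 1.5 times in 18 of 86 recomputations. With LNCaP siControl arrays alone the count was 38, against 97 with a trended prior, 74 with quantile normalization and 726 with the replicate block, which gave FOSL2 its call and changed no other member's, and 0 to 26 without 1 replicate. The other counts were 819 for the difference between the lines at 1 nM alone, 77 for siCTBP1-AS in LNCaP and 52 for siPSF with only the sets that hold the knockdown, and 42 for siCTBP1-AS over both lines with no filter. In that comparison 32 features were called higher and 43 lower, against 42 and 29 with quantile normalization. Leaving out 1 pair gave counts of 2161 to 4676 for R1881 in VCaP and of 579 to 1733 for its difference from LNCaP, the lowest without the VCaP siControl pair in both. Leaving out the knockdown arrays of 1 set gave 182 to 1113 for siCTBP1-AS in LNCaP (1113 without set 1), 23 to 309 over both lines (309 without VCaP) and 58 to 203 for siPSF (58 without VCaP). 

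Sign changes with quantile normalization were JUNB with R1881 in LNCaP siControl cells (0.034), FOSL2 with siCTBP1-AS in LNCaP (0.015), FOSL1 with siPSF (-0.0067), JUN in the siCTBP1-AS by R1881 term (-0.020) and JUND in the siPSF by R1881 term (-0.031). With only the sets that hold siPSF they were FOSL2 (0.10) and JUND (-0.022) in that term. With arrays left out, the ranges that crossed 0 were -0.019 to 0.20 for FOSL1 and -0.12 to 0.067 for JUNB with R1881 in LNCaP siControl cells, and -0.047 to 0.046 for FOSL1 and -0.23 to 0.024 for JUNB with R1881 in LNCaP. For siCTBP1-AS in LNCaP they were -0.034 to 0.15 for FOSL1, -0.70 to 0.61 for FOSL2 and -0.064 to 1.18 for JUNB. Over both lines they were -0.044 to 0.63 for FOSL2 and -0.085 to 0.25 for JUND with siCTBP1-AS, and -0.076 to 0.27 for FOS and -0.030 to 0.054 for FOSL1 with siPSF. In the siCTBP1-AS by R1881 term they were -0.44 to 0.25 for FOS, -0.55 to 0.28 for FOSL2, -0.11 to 0.40 for JUN, -0.57 to 0.14 for JUNB and -0.17 to 0.035 for JUND. In the siPSF by R1881 term they were -0.44 to 0.16 for FOS, -0.11 to 0.13 for FOSL2, -0.38 to 0.035 for JUNB and -0.22 to 0.21 for JUND. Apart from the set and array choices named here, the cause of these moves was not tested.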
